A study of Mus musculus with 18 samples.

Results

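Transcripts of 29 enzymes and carriers that bring pyruvate into mitochondria, run the tricarboxylic acid (TCA) cycle or draw on its intermediates were followed in BMC cells, an immortalised line of mouse brown preadipocytes. The members were given by gene name, and all 29 were found among the 45706 genes of the deposited table. All 29 also passed the filter on low counts, which left 14788 genes for testing. By role, 8 members serve pyruvate entry, 7 lead from citrate to oxoglutarate, 5 from oxoglutarate to succinate and 3 from fumarate to oxaloacetate, and 6 stand at exits and amino acid links.

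The cells had been differentiated with insulin, triiodothyronine, dexamethasone, indomethacin and isobutylmethylxanthine, and were used on day 7, still within a medium carrying 20 nM insulin and 1 nM triiodothyronine. By their labels, 6 libraries were not induced (0 h), 6 were taken 4 h and 6 were taken 24 h after 1 µM norepinephrine, the sympathetic transmitter that starts lipolysis in brown fat. The series asks how transcripts change over these times. Total RNA was sequenced after depletion of ribosomal RNA, all from this 1 cell line, and no label says whether the 6 libraries of a time came from separate cultures. The labels put all 18 in 1 batch. The spread behind each p-value is thus that among the sequenced libraries and may be technical.

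The titles also number the libraries of each time from 1 to 6. Libraries were therefore compared in number sets as well, numbers 3 and 6, numbers 2 and 5, and numbers 1 and 4, with 6 libraries each (2 numbers at 3 times). No label says what a number stands for. The sets were joined with earlier results of these data known, so a test between sets measures how far apart these libraries lie and not the effect of a named condition. A set holds only 2 numbers, and libraries of the same number are not known to be independent.

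In the TCA cycle, acetyl groups from pyruvate, fatty acids and amino acids are joined to oxaloacetate and oxidised, and the reduced cofactors feed the respiratory chain. In brown adipocytes that chain drives heat production through the uncoupling protein Ucp1. Pyruvate reaches the cycle through a carrier in the inner membrane and then either through the pyruvate dehydrogenase complex, which makes acetyl-CoA, or through pyruvate carboxylase, which refills oxaloacetate. In fat cells phosphoenolpyruvate carboxykinase withdraws oxaloacetate to make the glycerol backbone of triglycerides.

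Library totals ran from 7010742 to 26501223 expected counts. In the 24 h library with number 5, the shallowest, 41.5% of counts fell on Yam1 and Gm26917, which collect ribosomal RNA, against 6.78 to 10.6% in the other 17. Of 16 brown adipocyte markers 15 were tested, and their summed level was 4126 to 4914 CPM in numbers 3 and 6, 3958 to 4583 CPM in numbers 2 and 5, and 4604 to 4894 CPM in numbers 1 and 4. Elovl3 alone lay below the filter. The defining markers Cdh5 (endothelium), Adgre1 (macrophages) and Myod1 (skeletal muscle) were at 0 in every library, while other markers of these lists were present at a low level. The 5 macrophage markers summed to 2.90 to 3.89 CPM in numbers 3 and 6, 2.98 to 4.24 CPM in numbers 2 and 5 and 2.99 to 3.29 CPM in numbers 1 and 4, and the 4 endothelial markers to 0.671 to 1.48, 0.332 to 1.24 and 0.570 to 1.01 CPM. CPM relates a gene's count to the library's total, here the total multiplied by a TMM factor (trimmed mean of M values).

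The members together made up 4364 to 5173 CPM in numbers 3 and 6, 6333 to 6859 CPM in numbers 2 and 5, and 6473 to 6976 CPM in numbers 1 and 4. The 6 libraries of numbers 3 and 6 lay below the other 12 without overlap, while the other two sets overlapped. By labelled time the same sum had a median of 6601 CPM at 0 h, 6720 CPM at 4 h and 6397 CPM at 24 h. Each time spanned nearly the whole range of the sum.

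Relative to numbers 1 and 4, 24 members were lower and 4 were higher in numbers 3 and 6 at an adjusted p under 0.05, with edgeR's quasi-likelihood test and Benjamini-Hochberg adjustment over all genes. That is 96.6% of the members, where 59.7% of all genes tested were called (30.2% higher and 29.5% lower). A log2 fold change of -0.5 or lower was called for 9 members (31.0%), against 10.0% of all genes. In CPM, 24 members did not overlap between these sets, against 38.6% of all genes. The members' median log2 fold change was -0.34, and the median of all genes was 0.00. The member not called was Aco1, which passed once the 24 h library with number 3 was left out (adjusted p = 0.0344). Without the 24 h library with number 5 the counts were again 28 members called and 4 higher. In a fit of numbers 1, 2 and 3 alone, number 3 against number 1 called 23 members (79.3%, where 7441 of 14894 genes were called). In a fit of numbers 4, 5 and 6 alone, number 6 against number 4 called 27 (93.1%, against 45.6%). Which numbers are set against each other still follows the sets, and libraries of the same number are not known to be independent.

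Numbers 3 and 6 against numbers 2 and 5 gave a like count, 24 members lower and 3 higher, where 57.1% of all genes were called. Here 21 members did not overlap, against 29.8% of all genes, and 10 were called with a log2 fold change of -0.5 or lower (34.5%, against 8.61%). By direction, 28.6% of all genes were called higher and 28.5% lower. The members' median log2 fold change was -0.33. Idh2 and Suclg2 were not called, although leaving out any of 3 single libraries brought Suclg2 past the threshold. These 2 comparisons share the libraries of numbers 3 and 6. Numbers 2 and 5 against numbers 1 and 4 called 17 members, 10 higher and 7 lower, or 58.6% beside 59.5% of all genes (29.6% higher and 29.9% lower), with a median log2 fold change of -0.01. Only Got1 was called at -0.5 or lower (3.45%, against 11.1% of all genes). In that comparison 11 members did not overlap (37.9%), against 35.3% of all genes.

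Scaling mattered for the size of these counts. With library totals and no TMM factors the median of all genes moved to 0.17, -0.09 and 0.25 on the log2 scale in numbers 3 and 6 against 1 and 4, 2 and 5 against 1 and 4, and 3 and 6 against 2 and 5. The members called became 9 (4 higher), 4 (2 higher) and 7 (3 higher). These are 31.0%, 13.8% and 24.1% of the members, where 30.7%, 25.6% and 34.7% of all genes were called. The excess of called members over all genes was thus lost under this scaling. Left without the library rich in ribosomal RNA, an alternative chosen after seeing the data, the same totals called 22 members (4 higher), 17 (13 higher) and 26 (4 higher), or 75.9%, 58.6% and 89.7%, where 63.1%, 56.4% and 56.7% of all genes were called.

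**Figure D1:**
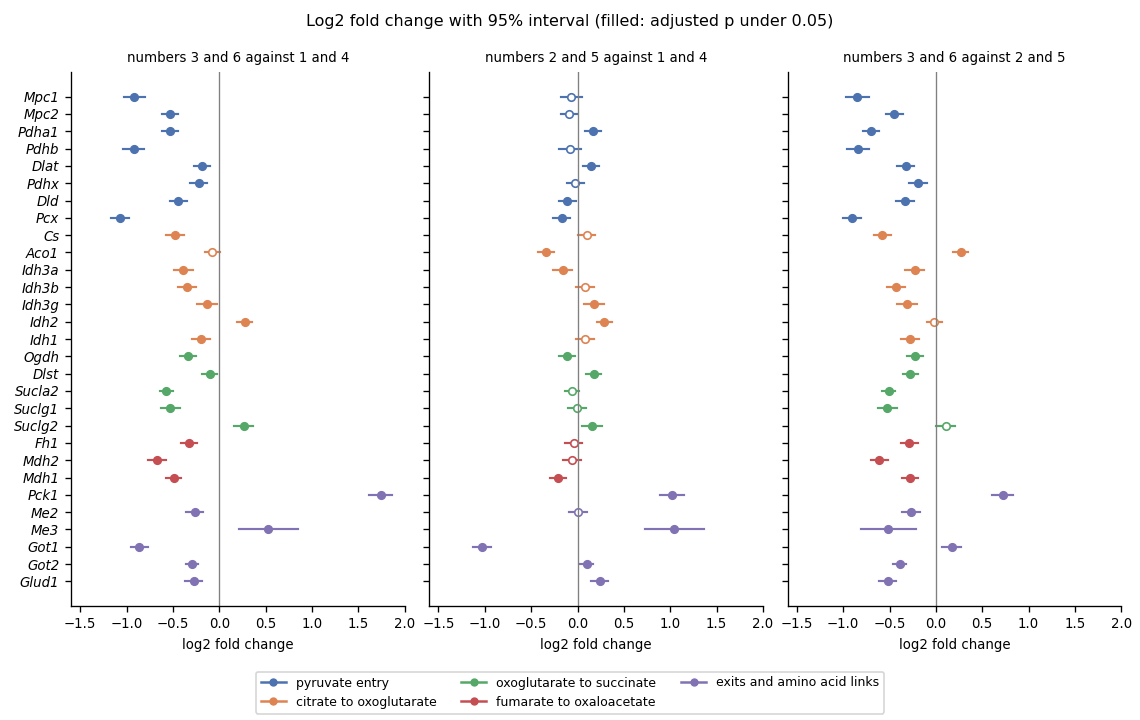
Log2 fold change (x axis) of each of the 29 members (rows, by role) in the 3 comparisons of number sets, with 95% intervals and filled points where the adjusted p is under 0.05. Most points lie left of 0 in the outer panels, Pck1 lies far right at 1.74 in the first, and the middle panel is spread to both sides of 0.

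Promoters are shown for 3 members, because cAMP, the second messenger of norepinephrine, is known to act through the cAMP response element (CRE) TGACGTCA and because Mdh2 and Ogdh hold the full element while Pck1 had the largest log2 fold change of the members. Of the 29 members, 27 matched a RefSeq promoter of build GRCm38.p6, covering 250 bases before to 50 after the start of the gene. The full CRE was found in 2 of the 27, Mdh2 and Ogdh (7.4%), and in 1.88% of 27025 promoters. Its half-site TGACG, searched on both strands and also contained in the full site, was found in 12 of 27 (44.4%), against 21.0% of all promoters. In the sequences below, capitals mark TGACG or its reverse complement CGTCA. The windows are chr2:173152823-173153122 for Pck1, chr5:135778399-135778698 for Mdh2 and chr11:6291347-6291646 for Ogdh, all on the plus strand.
Pck1: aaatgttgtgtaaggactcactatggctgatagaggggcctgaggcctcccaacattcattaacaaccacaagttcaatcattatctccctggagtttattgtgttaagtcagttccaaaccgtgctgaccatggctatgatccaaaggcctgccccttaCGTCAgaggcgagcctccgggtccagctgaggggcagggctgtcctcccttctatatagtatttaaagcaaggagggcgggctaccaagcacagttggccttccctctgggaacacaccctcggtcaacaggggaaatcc
Mdh2: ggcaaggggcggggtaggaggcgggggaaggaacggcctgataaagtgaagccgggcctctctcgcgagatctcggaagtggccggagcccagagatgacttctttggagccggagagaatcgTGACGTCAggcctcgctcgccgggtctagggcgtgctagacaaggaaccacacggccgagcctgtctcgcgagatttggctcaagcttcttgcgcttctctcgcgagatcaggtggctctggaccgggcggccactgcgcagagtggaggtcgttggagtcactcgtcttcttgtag
Ogdh: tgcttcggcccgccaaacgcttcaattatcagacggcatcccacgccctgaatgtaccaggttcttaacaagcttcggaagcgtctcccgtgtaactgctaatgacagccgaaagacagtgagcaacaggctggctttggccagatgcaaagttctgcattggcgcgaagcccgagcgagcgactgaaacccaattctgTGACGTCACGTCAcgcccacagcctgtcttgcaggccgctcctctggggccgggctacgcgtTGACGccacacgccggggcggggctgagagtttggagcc
The Pck1 window holds a single half-site, on the minus strand from base -90, the full element of Mdh2 begins at base -127 and that of Ogdh at base -51, with further half-sites of Ogdh from bases -43 and 12.

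Other motifs were counted in the same windows on both strands, some of them overlapping. The GC box GGGCGG was in 70.4% of the members' promoters and 35.9% of all, and the CCAAT box in 55.6% and 37.9%. CCGGAAG, an ETS core, was in 18.5% and 9.12%, and AGGTCA, a nuclear receptor half-site, in 18.5% and 16%. The E-box CACGTG was in 3.7% and 7.24%, and the TATA box TATAAA in 3.7% and 14.2%. TNAAGGTCA, which extends that half-site, was in 0 of 27, against 1.26% of all promoters, and the palindrome bound by nuclear respiratory factor 1 was in 0 of 27, against 0.977%. The members' windows had a median GC content of 62.0%, against 52.7%, and a median of 21 CpG sites, against 7. A match describes letters only, and its part in the levels was not tested.

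Pyruvate entry was lower as a block in numbers 3 and 6. All 8 members fell against numbers 1 and 4, with a median log2 fold change of -0.53, and all 8 fell against numbers 2 and 5, with a median of -0.57. The shares of all genes called lower in these comparisons were 29.5% and 28.5%. Under library totals Pdhx alone turned to the other side of 0 in the second comparison (0.07). That scaling called only 5 of all 29 members lower (4 higher) in the first comparison and 4 (3 higher) in the second. Not all 8 calls were thus kept in either. Left without the library rich in ribosomal RNA, an alternative chosen after seeing the data, the same totals called 18 and 22 of the 29 lower. Between numbers 2 and 5 and numbers 1 and 4, 2 were higher, 2 were lower and 4 did not pass. The share of all genes called there was 59.5%. The call of Dld (log2 -0.11) was lost on leaving out any of 12 single libraries. Pdhx took the other side of 0 (0.03) under totals without the library rich in ribosomal RNA.

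Mpc1 and Mpc2 are the subunits of the mitochondrial pyruvate carrier. Mpc1 (chromosome 17, 8282904 to 8297661, plus strand) ranged from 26.4 to 37.4 CPM in numbers 3 and 6 (median 35.4), from 57.4 to 66.0 CPM in numbers 2 and 5 (61.4) and from 58.8 to 67.9 CPM in numbers 1 and 4 (65.0). The low set stood clear of the other two, which overlapped. Its log2 fold change was -0.91 (SE 0.06, adjusted p = 1.33e-12) in numbers 3 and 6 against 1 and 4, and -0.07 (SE 0.06, adjusted p = 0.324) in numbers 2 and 5 against 1 and 4. Mpc2 (chromosome 1, 165460637 to 165481214, plus strand) had medians of 100.8, 134 and 141 CPM in the same sets, with ranges of 83.6 to 103, 123 to 137 and 135 to 147 CPM. It showed the same order with a smaller difference, -0.54 (SE 0.04, adjusted p = 1.1e-11) in numbers 3 and 6 against 1 and 4.

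Pyruvate dehydrogenase joins decarboxylating E1 subunits, encoded by Pdha1 and Pdhb, to the acetyltransferase Dlat, the binding protein Pdhx and the dehydrogenase Dld. Pdhb (chromosome 14, 8165996 to 8173025, minus strand) ranged from 105 to 145 CPM in numbers 3 and 6 (median 130.1), from 209 to 239 CPM in numbers 2 and 5 (231) and from 226 to 251.1 CPM in numbers 1 and 4 (247). Its level in numbers 3 and 6 was 0.527 of that in numbers 1 and 4, log2 -0.92 (SE 0.06, adjusted p = 2.71e-12). Pdha1 (chromosome X, 160122209 to 160138413, minus strand) ranged from 172 to 208 CPM in numbers 3 and 6 (median 192), from 303 to 322 CPM in numbers 2 and 5 (308) and from 262 to 289 CPM in numbers 1 and 4 (276). No pair of sets overlapped for this gene, whose highest set was numbers 2 and 5. Its log2 fold change was -0.53 (SE 0.04, adjusted p = 1.31e-11) in numbers 3 and 6 and 0.17 (SE 0.04, adjusted p = 0.00101) in numbers 2 and 5, each against 1 and 4. The other subunits moved less, -0.18 for Dlat, -0.22 for Pdhx and -0.44 for Dld in numbers 3 and 6 against 1 and 4.

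Pcx, pyruvate carboxylase (chromosome 19, 4510472 to 4621752, plus strand), was the member with the highest level per exon length, a mean of 224 CPM per kb over the 18 libraries. It ranged from 556 to 688 CPM in numbers 3 and 6 (median 663), from 1142 to 1245 CPM in numbers 2 and 5 (1193) and from 1294 to 1415 CPM in numbers 1 and 4 (1349). The 3 sets did not overlap. The log2 fold change was -1.07 (SE 0.05, adjusted p = 4.93e-17) in numbers 3 and 6 and -0.17 (SE 0.05, adjusted p = 0.00234) in numbers 2 and 5, each against 1 and 4.

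**Figure D2:**
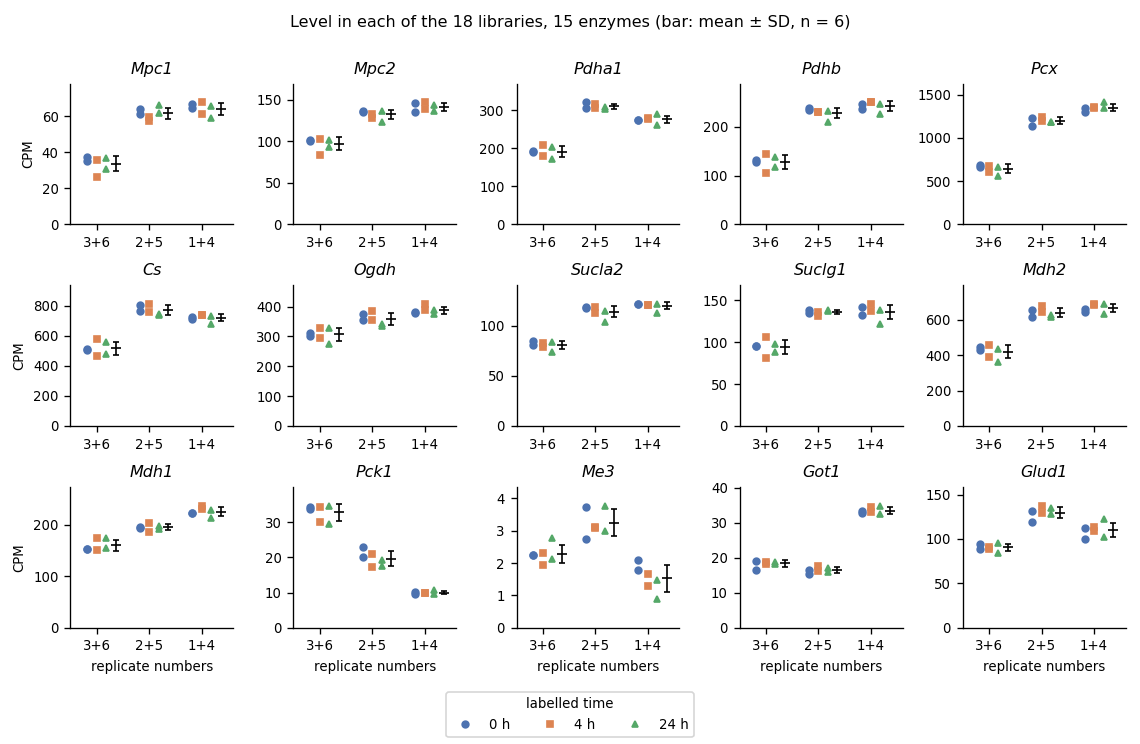
Level in CPM (y axis, from 0) of 15 members in each of the 18 libraries, by number set (x axis) and labelled time (colour and shape), with mean ± SD (n = 6) as bars. Pyruvate entry members such as Mpc1 and Pcx are lowest in numbers 3 and 6, Pck1 is highest there, and the 3 times are mixed within each set.

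From citrate to oxoglutarate the members did not move together. In numbers 3 and 6 against 1 and 4, 5 of 7 fell, Idh2 rose and Aco1 did not pass. The shares of all genes called there were 29.5% lower and 30.2% higher. Cs, citrate synthase (chromosome 10, 128337734 to 128362479, plus strand), ranged from 470 to 579 CPM in numbers 3 and 6 (median 508), from 740.2 to 814 CPM in numbers 2 and 5 (763) and from 681 to 741 CPM in numbers 1 and 4 (729). Numbers 3 and 6 lay below both other sets, which overlapped, and the log2 fold change was -0.48 (SE 0.05, adjusted p = 6.68e-10) against 1 and 4.

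Of 5 isocitrate dehydrogenase genes, 4 fell and Idh2 rose. Idh3a, Idh3b and Idh3g encode the NAD-dependent mitochondrial enzyme and fell by 0.39, 0.35 and 0.13 on the log2 scale in numbers 3 and 6 against 1 and 4. The call of Idh3g was lost on leaving out any of 7 single libraries (adjusted p up to 0.123), and it turned to 0.03 under library totals. Idh2, the NADP-dependent mitochondrial enzyme, rose by log2 0.27 (SE 0.04, adjusted p = 1.37e-06), at 185 ± 11.2 CPM in numbers 3 and 6 and 153 ± 6.25 CPM in numbers 1 and 4 (SD, n = 6 each). It was about as high in numbers 2 and 5, 187 ± 7.86 CPM. Idh1, the cytosolic NADP-dependent enzyme, fell by 0.20 in numbers 3 and 6 against 1 and 4. Aco1, the cytosolic aconitase that also binds iron-responsive RNA elements, was lowest in numbers 2 and 5, with 155 ± 7.68 CPM against 196 ± 3.21 CPM in numbers 1 and 4, log2 -0.34 (SE 0.04, adjusted p = 6.29e-08).

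From oxoglutarate to succinate, 4 of 5 members fell and 1 rose in numbers 3 and 6 against 1 and 4. Among all genes, 29.5% were called lower there and 30.2% higher. Ogdh, the decarboxylating subunit of oxoglutarate dehydrogenase (chromosome 11, 6291633 to 6356642, plus strand), whose promoter with the full CRE is printed above, ranged from 274 to 330 CPM in numbers 3 and 6 (median 307), from 336 to 384 CPM in numbers 2 and 5 (355) and from 377 to 409 CPM in numbers 1 and 4 (387). Numbers 3 and 6 lay below both other sets, which overlapped. The log2 fold change was -0.34 (SE 0.04, adjusted p = 7.5e-08) against 1 and 4 and -0.22 (SE 0.04) against 2 and 5. The second value became 0.05 under library totals. In numbers 2 and 5 against 1 and 4 it was -0.12 (adjusted p = 0.0199), a call lost without the 0 h or the 24 h library with number 2 (adjusted p up to 0.0535). Dlst, the succinyltransferase of the same complex, fell by 0.10 against 1 and 4. That call was lost on leaving out any of 6 single libraries (adjusted p up to 0.119), and library totals turned it to 0.06.

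Succinyl-CoA ligase pairs the common subunit Suclg1 with Sucla2, which makes ATP, or with Suclg2, which makes GTP. Sucla2 (chromosome 14, 73525319 to 73596142, plus strand) ranged from 74.2 to 84.4 CPM in numbers 3 and 6 (median 81.4), from 103 to 119 CPM in numbers 2 and 5 (116) and from 113 to 122 CPM in numbers 1 and 4 (121). It fell by 0.57 on the log2 scale (SE 0.03, adjusted p = 7.32e-14) in numbers 3 and 6 against 1 and 4. Suclg1 (chromosome 6, 73248382 to 73276911, plus strand) ranged from 81.5 to 106 CPM (median 94.9), from 131 to 138 CPM (136) and from 122 to 146 CPM (138) in the same sets, a log2 fold change of -0.53 (SE 0.05, adjusted p = 5.96e-10). Suclg2 went the other way, with 44.3 ± 3.57 CPM in numbers 3 and 6 against 37.1 ± 0.777 CPM in numbers 1 and 4, log2 0.26 (SE 0.05, adjusted p = 3.88e-05).

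From fumarate to oxaloacetate all 3 members fell in numbers 3 and 6, against either other set. Lower calls covered 29.5% of all genes against 1 and 4 and 28.5% against 2 and 5. Mdh2, mitochondrial malate dehydrogenase (chromosome 5, 135778480 to 135790398, plus strand), has the other full CRE printed above. It ranged from 362 to 460 CPM in numbers 3 and 6 (median 432), from 618 to 678 CPM in numbers 2 and 5 (636) and from 636 to 691 CPM in numbers 1 and 4 (674). The log2 fold change was -0.67 (SE 0.05, adjusted p = 9.4e-13) in numbers 3 and 6 and -0.06 (SE 0.05, adjusted p = 0.268) in numbers 2 and 5, each against 1 and 4. Mdh1, the cytosolic enzyme (chromosome 11, 21556787 to 21572367, minus strand), ranged from 151 to 175 CPM in numbers 3 and 6 (median 154), from 186 to 203 CPM in numbers 2 and 5 (194) and from 212 to 237 CPM in numbers 1 and 4 (225). Its 3 sets were separate, with -0.49 (SE 0.04, adjusted p = 2.49e-11) and -0.21 (SE 0.04, adjusted p = 5.36e-05) against 1 and 4. Fh1, fumarase, fell by 0.33 in numbers 3 and 6 against 1 and 4.

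At the exits, Pck1, cytosolic phosphoenolpyruvate carboxykinase (chromosome 2, 173153048 to 173159273, plus strand; promoter above), was higher in each step of the comparison. In numbers 3 and 6 it had 33.7, 34.2, 34.7, 34.2, 30.1 and 29.6 CPM (number 3 at 0, 4 and 24 h, then number 6). Numbers 2 and 5 gave 20.0, 17.2, 19.1, 22.8, 21.0 and 17.6 CPM in the same order of times, and numbers 1 and 4 gave 10.2, 9.78, 9.59, 9.49, 9.79 and 10.6 CPM. The 3 sets were far apart and the times within a number were close. The fold change was 3.34 in numbers 3 and 6 (log2 1.74, SE 0.06, adjusted p = 1.67e-19) and 2.03 in numbers 2 and 5 (log2 1.02, SE 0.06, adjusted p = 1.85e-13), each against 1 and 4.

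Malic enzymes turn malate into pyruvate. Me3, the mitochondrial NADP-dependent form (chromosome 7, 89632392 to 89854359, plus strand), was near the limit of detection, with 9 to 85 counts per library, and ranged from 1.95 to 2.76 CPM in numbers 3 and 6 (median 2.26), from 2.75 to 3.78 CPM in numbers 2 and 5 (3.10) and from 0.876 to 2.10 CPM in numbers 1 and 4 (1.57). It was highest in numbers 2 and 5, log2 1.04 (SE 0.15, adjusted p = 1.42e-06) against 1 and 4. Me2, the mitochondrial NAD-dependent form, fell by 0.26 in numbers 3 and 6 against 1 and 4.

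Aspartate aminotransferases exchange oxaloacetate for aspartate on both sides of the inner membrane. Got1, the cytosolic enzyme (chromosome 19, 43499752 to 43524605, minus strand), ranged from 16.5 to 19.2 CPM in numbers 3 and 6 (median 18.6), from 15.3 to 17.6 CPM in numbers 2 and 5 (16.3) and from 32.4 to 34.9 CPM in numbers 1 and 4 (33.1). Here numbers 1 and 4 stood apart, and the other two sets overlapped. The log2 fold change against 1 and 4 was -0.86 (SE 0.04, adjusted p = 1.04e-15) in numbers 3 and 6 and -1.03 (SE 0.05, adjusted p = 9.89e-17) in numbers 2 and 5. Got2, the mitochondrial enzyme, had its lowest level in numbers 3 and 6 instead, 99.8 ± 5.41 CPM, against 131 ± 4.45 CPM in numbers 2 and 5 and 122 ± 3.2 CPM in numbers 1 and 4.

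Glud1, glutamate dehydrogenase (chromosome 14, 34310727 to 34345265, plus strand), ranged from 83.8 to 95.5 CPM in numbers 3 and 6 (median 90.3), from 119 to 138 CPM in numbers 2 and 5 (130.0) and from 100.4 to 122 CPM in numbers 1 and 4 (111). Numbers 3 and 6 were lowest without overlap. The log2 fold change was -0.28 (SE 0.04, adjusted p = 4.65e-06) in numbers 3 and 6 and 0.24 (SE 0.04, adjusted p = 4.05e-05) in numbers 2 and 5, each against 1 and 4.

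Paralogous and competing enzymes were set against each other within each library, which takes out the scaling between libraries. The 6 ratios were chosen after their values were seen, so the log2 ratios of CPM are given as a description, with no test. The log2 ratio of Sucla2 to Suclg2 averaged 0.87 ± 0.10 in numbers 3 and 6, 1.5 ± 0.07 in numbers 2 and 5 and 1.69 ± 0.03 in numbers 1 and 4 (SD, n = 6 each). For Got1 to Got2 the values were -2.44 ± 0.07, -2.99 ± 0.05 and -1.87 ± 0.05 in the same sets. Pck1 to Pcx averaged -4.29 ± 0.05, -5.93 ± 0.14 and -7.08 ± 0.06. These are transcripts of an enzyme that draws on oxaloacetate and of one that makes it, and no flux was measured. Pcx to Pdha1 averaged 1.74 ± 0.06, 1.95 ± 0.03 and 2.29 ± 0.04, and Idh3a to Idh2 averaged 0.70 ± 0.09, 0.91 ± 0.05 and 1.36 ± 0.05. For Mdh1 to Mdh2 the averages were -1.39 ± 0.12, -1.72 ± 0.05 and -1.57 ± 0.03.

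**Figure D3:**
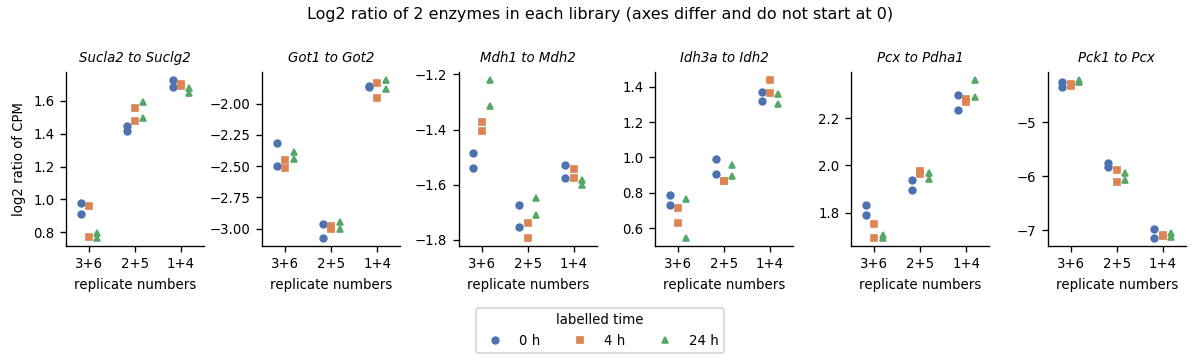
Log2 ratio of the CPM of 2 members (y axis, which differs between panels and does not start at 0) in each library, by number set (x axis) and labelled time. The sets separate in every panel, apart from an overlap of numbers 3 and 6 with numbers 1 and 4 for Mdh1 to Mdh2.

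Per exon length, with GENCODE M21 gene models on mm10, the cycle's members differed widely in level. The length joins all annotated exons of a gene, such as 14.6 kb for Me3, so levels and their order depend on it. Mean levels over the 18 libraries ran from 224 CPM per kb for Pcx, 162 for Mdh2 and 116 for Cs down to 6.05 for Pck1, 3.21 for Me2 and 0.161 for Me3. The mitochondrial form stood above the cytosolic one among the malate dehydrogenases (162 against 75.3 CPM per kb for Mdh1) and the aminotransferases (24.4 for Got2 against 8.94 for Got1). Exons of Mpc1, Pdha1, Idh3b, Mdh1, Me3 and Got2 overlap a gene on the other strand. The library kit keeps the strand, but the strand setting of the counting is not given in the sources used here, so reads of these pairs may be mixed.

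**Figure D4:**
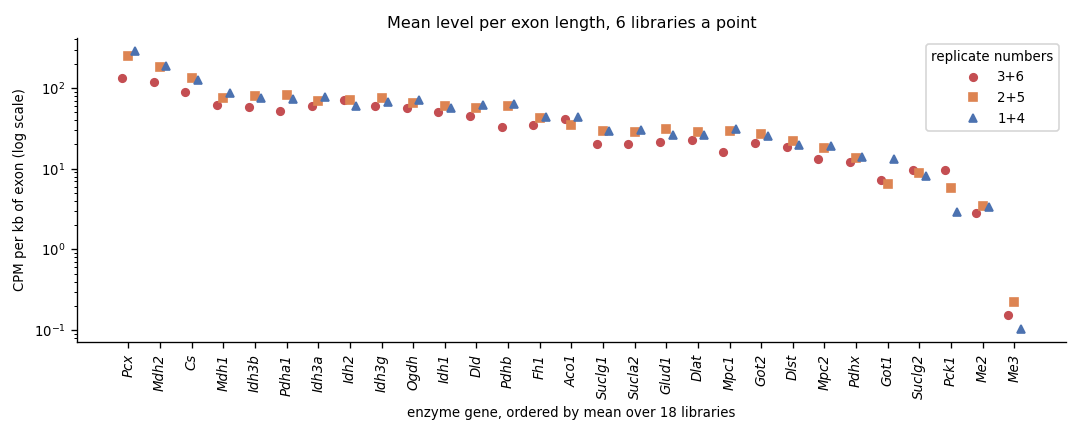
Mean level in CPM per kb of exon (y axis, log scale) of each member in each number set (n = 6 libraries a point), ordered by the mean over all 18 libraries. Levels span from 224 for Pcx to 0.161 for Me3 over all libraries, and the gap between sets is widest for Pck1.

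Other genes of the pathway were taken from 5 lists, chosen with earlier results known. Of 8 succinate dehydrogenase subunits and assembly factors, 5 were lower and 0 higher in numbers 3 and 6 against 1 and 4 (62.5% called, near the 59.7% of all genes, with a median log2 fold change of -0.18). Sdha and Sdhb, catalytic subunits of complex II, fell by 0.61 (SE 0.04, adjusted p = 1.42e-12) and 0.63 (SE 0.06, adjusted p = 1.56e-09), with 433 and 111 CPM in numbers 3 and 6 against 663 and 173 CPM in numbers 1 and 4. In numbers 2 and 5 against 1 and 4 that list had 1 member higher and 1 lower (25.0%, against 59.5% of all genes), and 2 higher and 4 lower in numbers 3 and 6 against 2 and 5 (75.0%, against 57.1%).

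Of 7 genes on the list of pyruvate dehydrogenase kinases and phosphatases, 4 were lower and 2 higher in numbers 3 and 6 against 1 and 4, 2 were lower and 4 higher in numbers 2 and 5 against 1 and 4, and 6 were lower and 1 higher in numbers 3 and 6 against 2 and 5. That is 85.7%, 85.7% and 100% called in these comparisons, where 59.7%, 59.5% and 57.1% of all genes were called. The kinases, which inactivate the complex, differed in order. Pdk1 had 47.6 CPM in numbers 3 and 6, 134 CPM in numbers 2 and 5 and 162 CPM in numbers 1 and 4, log2 -1.76 (SE 0.07) and -0.26 (SE 0.07) against the last set. Pdk2 had 65.9, 99.4 and 54.5 CPM in the same sets, and Pdk4 had 168, 331 and 196 CPM, each highest in numbers 2 and 5. Pdk4 in numbers 3 and 6 against 1 and 4 was not called (log2 -0.22, adjusted p = 0.0654).

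Among 16 other enzymes at the cycle and its exits, 9 were lower and 5 higher in numbers 3 and 6 against 1 and 4, 7 and 7 in numbers 2 and 5 against 1 and 4, and 8 and 3 in numbers 3 and 6 against 2 and 5 (87.5%, 87.5% and 68.8% called). The shares of all genes were 59.7%, 59.5% and 57.1%. Ldha, a lactate dehydrogenase subunit, had 171 CPM in numbers 3 and 6, 569 CPM in numbers 2 and 5 and 795 CPM in numbers 1 and 4, log2 -2.21 (SE 0.06) and -0.48 (SE 0.06) against the last. Cytosolic malic enzyme Me1 had 64.3, 128 and 138 CPM in the same sets, log2 -1.10 (SE 0.04) in numbers 3 and 6 against 1 and 4. Ogdhl, an isoform of Ogdh, had means of 0.612, 0.392 and 0.294 CPM and was higher in numbers 3 and 6 (log2 1.20, SE 0.32, against 1 and 4). These means lie below those of Me3, itself near the limit of detection.

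Of 6 tested carriers of cycle intermediates, 5 were lower and 0 higher in numbers 3 and 6 against 1 and 4, 4 and 0 in numbers 2 and 5 against 1 and 4, and 2 and 2 in numbers 3 and 6 against 2 and 5 (83.3%, 66.7% and 66.7% called). The shares of all genes were 59.7%, 59.5% and 57.1%, so the carriers' share lay near them in both comparisons at 66.7%. The citrate carrier Slc25a1 was lowest in numbers 2 and 5, with 65.2, 41.8 and 79.9 CPM in numbers 3 and 6, 2 and 5, and 1 and 4. The dicarboxylate carrier Slc25a10 had 47.7, 38.2 and 58.2 CPM in that order. Of 4 tested genes of lipoic acid attachment and complex assembly, 2 were lower and 1 higher in numbers 3 and 6 against 1 and 4 and likewise in numbers 2 and 5, and 1 was lower in numbers 3 and 6 against 2 and 5 (75.0%, 75.0% and 25.0% called). The last share lay below the 57.1% of all genes. Mrps36, which links subunits of oxoglutarate dehydrogenase, had 23.8, 25.4 and 36.2 CPM, and Lipt2, a lipoyl transferase, 2.20, 2.91 and 1.48 CPM.

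Markers of other cell states moved with the number sets. Of 12 preadipocyte and fibroblast markers 9 were tested, and all 9 were higher in numbers 3 and 6 against 1 and 4, with a median log2 fold change of 0.99. Of all genes, 59.7% were called there (30.2% higher and 29.5% lower). In numbers 2 and 5 against 1 and 4, 8 were higher and 0 lower (88.9%, against 59.5% of all genes). In numbers 3 and 6 against 2 and 5, 7 were higher and 1 lower (88.9%, against 57.1%). The 12 markers summed to 1961 to 2415 CPM in numbers 3 and 6, 1465 to 2009 CPM in numbers 2 and 5 and 1145 to 1293 CPM in numbers 1 and 4. The sum of 4 smooth muscle markers was 58.9 to 81.5, 28.0 to 53.0 and 23.0 to 26.6 CPM in the same sets. The 5 skeletal muscle markers summed to 0.487 to 1.19, 2.13 to 2.99 and 3.37 to 4.25 CPM, and the 1 tested, Acta1, was lower in numbers 3 and 6 against 1 and 4 (log2 -2.24, SE 0.17, adjusted p = 4.12e-12). Of the brown adipocyte list, 6 were higher and 6 lower in numbers 3 and 6 against 1 and 4 (80.0% of those tested). In numbers 2 and 5 against 1 and 4, 7 were higher and 7 lower (93.3%), and in numbers 3 and 6 against 2 and 5, 8 and 3 (73.3%). The part of these markers in the members' differences was not tested, and in such bulk samples fewer cells of a type and less RNA per cell cannot be told apart. Among 7 genes that report RNA quality, 3 were lower and 0 higher in numbers 3 and 6 against 1 and 4. That is 42.9%, below the 59.7% of all genes.

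Between labelled times no member passed. Since differences followed the numbers and not the labelled times, it is in doubt whether the labels and the column names tie each library to its true time, and the sources used here do not settle it. All comparisons of times hold only if they do. In edgeR's test with time as the only factor, 0 of 29 members and 0 of 14788 genes were called at 4 h against 0 h, at 24 h against 0 h and at 24 h against 4 h (0% in each). At an unadjusted p under 0.05 there were 173, 158 and 137 genes (1.17%, 1.07% and 0.926%) and 0 members. In CPM, 10, 6 and 0 genes (0.0676%, 0.0406% and 0%) and 0 members did not overlap between the times. DESeq2 and limma-voom also called 0. The members' log2 fold changes ran from -0.16 to 0.09 at 4 h against 0 h and from -0.09 to 0.05 at 24 h against 0 h.

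Pck1 had a median of 21.4 CPM at 0 h (9.49 to 34.2), 19.1 CPM at 4 h (9.78 to 34.2) and 18.3 CPM at 24 h (9.59 to 34.7). Pdha1 had medians of 275, 279 and 276 CPM, with ranges of 191 to 322, 179.8 to 316 and 172 to 309 CPM. For Cs the medians were 719, 739.8 and 705 CPM, with ranges of 503 to 806, 470 to 814 and 483 to 744 CPM. Ogdh had medians of 366, 369 and 339 CPM, with ranges of 303 to 383, 295 to 409 and 274 to 390 CPM. The 3 times overlapped almost wholly for each of these 4 genes.

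With the replicate number as a block, which removes the spread between numbers, the intervals were narrower and 0 members passed. Apart from Me3, all 95% intervals lay between -0.20 and 0.15 at 4 h against 0 h and between -0.19 and 0.14 at 24 h against 0 h on the log2 scale. At an unadjusted p under 0.05, 2 members stood in each comparison, where 9.88%, 7.81% and 5.12% of all genes did. At 4 h they were Got2 (log2 0.09, edgeR adjusted p = 0.328) and Mpc1 (log2 -0.10, edgeR adjusted p = 0.459). At 24 h against 0 h they were Sucla2 (log2 -0.07) and Dlat (-0.08), and at 24 h against 4 h Ogdh (-0.08) and Mdh2 (-0.08). The block called 1 gene (0.00676%), no member, at 24 h against 0 h, and 0 in the other comparisons of times. A test of whether the time differences themselves varied with the number set called 0 genes and 0 members (415 genes, 2.81%, and 0 members at an unadjusted p under 0.05).

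Within the 6 numbers the members' median difference at 24 h minus 0 h was -0.07, -0.03, 0.08, 0.06, -0.12 and -0.11 on the log2 scale for numbers 1 to 6, so it had no common sign. Number 5 holds the 24 h library rich in ribosomal RNA. As a description with no test, the number set accounted for a median of 85.3% of a member's variance in log2 CPM, and for 62.7% over all genes, and labelled time for 1.17% and 3.78%. Got1 (98.3%), Pck1 (97.9%) and Pcx (97.8%) had the largest shares for the number set, and Suclg2 the smallest (54.6%).

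**Figure D5:**
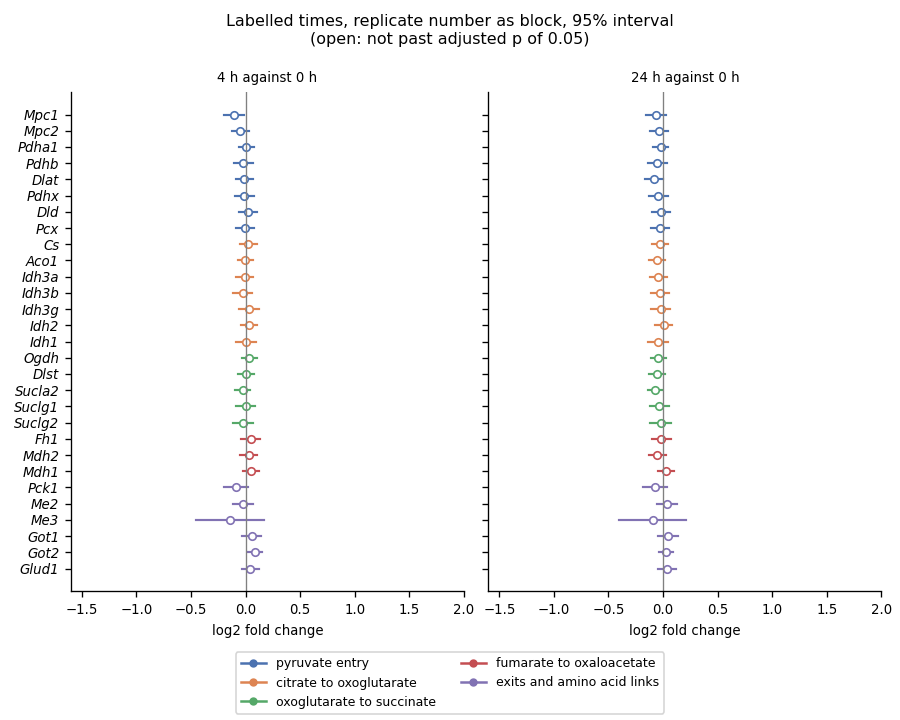
Log2 fold change (x axis) of each member at 4 h and at 24 h against 0 h with the replicate number as a block, with 95% intervals. All points are open, since no adjusted p is under 0.05, and apart from Me3 the intervals stay within -0.20 and 0.15 on the scale also used for the number sets.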

How the data were processed

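RNA of 18 libraries was measured by total RNA sequencing. Values are the authors' deposited expected counts by gene, made and merged with salmon, as the table is named in the labels. Build mm10 and the tools limma and edgeR are listed, with no versions, in the submitters' processing notes, and no source used here gives the salmon version, annotation or strand setting. Of the values above 0, 27.4% were not whole, and counts were rounded. No other columns of per-sample values were in the table.

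Genes were kept by filterByExpr by time (minimum count 10, minimum total 15), which left at least 99.9% of each library's counts, and totals were scaled by TMM. Log2 CPM used a prior count of 2. The robust quasi-likelihood F-test of edgeR was fitted over all 18 libraries, with time alone for the labelled times and with number set plus time for the number sets, and p-values were adjusted by Benjamini-Hochberg over all genes tested (threshold 0.05). SE stands for the standard error of such a change. All p-values are two-sided. DESeq2 and limma-voom, other scalings, no filter, left-out libraries and single numbers or times were alternatives. The procedure was tested on simulated data. For the labelled times these held no differences between number sets, so they do not show how well the time-only test finds changes here.

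Members and lists were chosen with earlier results of these data known. Values per library are plotted for the 14 members with the largest called difference between number sets without overlap and for Pck1, Pdha1, Cs and Ogdh. The text prints them for Pck1, and gives ranges and medians by set for the others. From other lists, up to 3 genes called with a log2 size of at least 0.5 are named. All further genes named were picked once their values were known. Fdx2, on 1 list, had no row.

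For all 18 pairs of libraries of equal number, the correlation of deviations from the time means was 0.297 to 0.718, with a median of 0.59. Libraries of the same set with different numbers had a median of 0.569 (0.237 to 0.688), and libraries of different sets -0.27. Libraries of equal number were thus hardly more alike than others of their set. The pairing by number comes from the titles alone.

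Promoters and their coordinates are from RefSeq (GRCm38.p6), positions and exon lengths from GENCODE M21 (mm10). Python 3.11.15 ran pandas 2.3.3, matplotlib 3.10.9, scipy 1.17.1 and numpy 2.4.6. Fits used DESeq2 1.42.0, limma 3.58.1 and edgeR 4.0.16 under R 4.3.3.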

Additional observations from a re-analysis of the deposited data

Results flagged for a closer look

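In 7 of 174 groups of 6 libraries that were examined, 1 library lay further from the others than Dixon's critical value of 0.625 allows. For 6 values from 1 normal distribution, chance alone singles out about 1 group in 20. Groups by labelled time pool the number sets, so that rate does not hold for them. The 24 h library with number 5, rich in ribosomal RNA, was the lowest of numbers 2 and 5 for Pdhb (209 CPM, the others 229.9 to 239) and for Fh1 (120.3 CPM, the others 143 to 151). In numbers 1 and 4, the 24 h library with number 1 was the lowest for Pdhx (50.9 CPM, the others 54.95 to 57.3) and Sucla2 (113 CPM, the others 120.4 to 122). Suclg2 was high in the library labelled 4 h with number 3, at 48.2 CPM where the other libraries of that time had 36.9 to 40.4. Got1 was low in the 0 h library with number 6, at 16.5 CPM beside 18.3 to 19.2 CPM in numbers 3 and 6. Got2 was high in the 4 h library with number 5, at 139.5 CPM beside 127 to 131 CPM in numbers 2 and 5.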

How the results depend on the processing

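In the comparisons of number sets, the members called in numbers 3 and 6 against 1 and 4 numbered 23 to 28 and in numbers 3 and 6 against 2 and 5 they numbered 23 to 27 under the alternatives run on all libraries or on single numbers or times, apart from those given next. These are 79.3% to 96.6% and 79.3% to 93.1% of the members, where 30.3% to 60.7% and 30.1% to 58.5% of all genes were called. Library totals with no scaling called 4536, 3788 and 5130 genes and 9, 4 and 7 members in numbers 3 and 6 against 1 and 4, 2 and 5 against 1 and 4, and 3 and 6 against 2 and 5, where 3404, 1348 and 4406 of the genes were higher, against 4471, 4378 and 4230 with TMM. Without the 24 h library with number 5 those totals called 9423, 8426 and 8463 genes, of which 6970, 4803 and 5871 were higher. The 4 h libraries alone called 4891, 4873 and 4392 genes and, in numbers 2 and 5 against 1 and 4, 7 members (24.1%, below the 33.4% of all genes). The 24 h libraries alone called 4522, 3698 and 3414 genes, with 2 libraries a set. They called 4 members in numbers 2 and 5 against 1 and 4 (13.8%, below the 24.8% of all genes) and 15 in numbers 3 and 6 against 2 and 5 (51.7%, against 22.9%). Counts summed per number called 26, 13 and 27 members (89.7%, 44.8% and 93.1%), where 56.2%, 56.3% and 54.2% of all genes were called. The number as a random effect called 28, 16 and 27 (96.6%, 55.2% and 93.1%), where 59.2%, 58.5% and 57.0% of all genes were called.

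Some members changed sign. Under library totals these were, in numbers 3 and 6 against 1 and 4, Aco1 (0.087), Idh3g (0.033) and Dlst (0.061), in numbers 2 and 5 against 1 and 4, Cs (-0.0095), Idh3b (-0.025), Idh1 (-0.025), Me2 (-0.087) and Got2 (-0.012), and in numbers 3 and 6 against 2 and 5, Pdhx (0.073), Idh3a (0.039), Idh2 (0.25) and Ogdh (0.050). Without the 24 h library with number 5, chosen after seeing the data, the totals gave Aco1 0.087, Idh3g 0.031 and Dlst 0.059 in the first comparison, Pdhx 0.031, Suclg1 0.031 and Fh1 0.036 in the second and Idh2 0.089 in the third. Numbers 1, 2 and 3 alone gave Aco1 0.0099, Me2 -0.073 and Idh2 0.049 in those comparisons. The 0 h libraries alone gave, in numbers 2 and 5 against 1 and 4, Pdhx 0.046, Fh1 0.018 and Me2 -0.036, and Suclg2 -0.035 in numbers 3 and 6 against 2 and 5. The 24 h libraries alone gave Mpc1 0.027, Idh1 -0.051, Suclg1 0.075 and Me2 -0.0039 in numbers 2 and 5 against 1 and 4, and Idh2 0.075 in numbers 3 and 6 against 2 and 5. Suclg1 was 0.0018 in numbers 2 and 5 against 1 and 4 without genes that collect ribosomal RNA, and Pck1 was 0.0060 at 24 h against 0 h in limma-voom. The causes were not tested.

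With 1 library left out in turn, 26 to 29, 15 to 19 and 27 to 28 members were called in the 3 comparisons of sets. Of all genes, 8446 to 8972, 8312 to 8952 and 7852 to 8557 were called. Calls were lost for Dld and Ogdh in numbers 2 and 5 against 1 and 4 (12 and 2 of 18 libraries) and for Idh3g and Dlst in numbers 3 and 6 against 1 and 4 (7 and 6 of 18). Calls were gained for Aco1 in numbers 3 and 6 against 1 and 4 (1 library), for Cs, Mpc2 and Idh1 in numbers 2 and 5 against 1 and 4 (4, 2 and 1) and for Suclg2 in numbers 3 and 6 against 2 and 5 (3). Values that crossed 0 ran from -0.011 to 0.037 for Me2 and -0.028 to 0.022 for Suclg1 in numbers 2 and 5 against 1 and 4, and from -0.044 to 0.011 for Idh2 in numbers 3 and 6 against 2 and 5. At 24 h against 0 h they ran from -0.32 to 0.092 for Pck1, -0.10 to 0.071 for Pdha1, -0.10 to 0.041 for Cs and -0.084 to 0.014 for Ogdh. At 4 h against 0 h they ran from -0.32 to 0.079 for Pck1 and -0.19 to 0.041 for Mpc1, and at 24 h against 4 h from -0.17 to 0.022 for Mdh2.

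At the labelled times the replicate block, taken from the numbers in the titles, called 1 gene at 24 h against 0 h and changed no other call. Leaving out 1 library gave 0 to 1 genes at 4 h against 0 h and at 24 h against 4 h, the 1 without the 4 h library with number 3. For the members, 0 passed at the labelled times under any alternative run. Depth limits Me3 most, with 9 counts in 2 of the 18 libraries, and intervals cover the spread between these libraries only.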

Other observations

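Differences between number sets were present within each labelled time. Among the 6 libraries labelled 0 h, which had received no norepinephrine by their labels, 25 members were called in numbers 3 and 6 against 1 and 4 with 2 libraries a set, 3 of them higher, and 6993 of 15036 genes tested were called (86.2% of members and 46.5% of genes). The libraries labelled 4 h gave 23 members, 3 of them higher, beside 4891 of 14593 genes (79.3% and 33.5%), and those labelled 24 h gave 24 members, 4 of them higher, beside 4522 of 14923 genes (82.8% and 30.3%). The members' median log2 fold change was -0.34 within 0 h, -0.36 within 4 h and -0.32 within 24 h.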
